A study of Mus musculus with 12 samples.

Results

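The genes described here encode the EGF receptor family and its ligands in mouse hair follicle stem cells (HFSCs), the CD34+ keratinocytes of the bulge from which the hair follicle is renewed. The 10 members were taken by gene symbol, without a rule on their values, though earlier results of these data were known when they were chosen. They are the receptors Egfr, Erbb2 and Erbb3, the ligands Hbegf, Tgfa, Areg, Ereg, Epgn and Btc, and Errfi1, an inhibitor of the receptors. They made up 10 of 17885 genes in the table of control and Eed iKO libraries and 10 of 21915 genes in the hair cycle table, and all 10 passed the filter on low values in both tables. The series holds 12 bulk RNA-seq libraries, 3 in each of 4 groups, from C57BL/6J back skin that was digested with trypsin and sorted for CD34+ cells that were also EpCAM+, high in α6-integrin and Sca1-. Eed iKO cells came from mice at postnatal day 70 labelled Eed -/-. In the study these are K15-CrePGR: Eed fl/fl mice, in which Cre from a transgene active in the bulge is switched on by RU-486 applied to shaved skin, so cells in which Cre did not act could remain in the sort. EED is a core subunit of PRC2, the complex that places H3K27me3. Control cells came from mice of the same age labelled wildtype, and in the study's methods control skin received the ethanol vehicle. Exposure to RU-486, active Cre and the loss of Eed therefore cannot be told apart between these groups. Anagen cells, from the growth phase of the hair cycle, came from wildtype mice at postnatal days 28 to 30, and telogen cells, from the resting phase, from wildtype mice at postnatal days 50 to 52. Age and hair cycle phase therefore cannot be told apart.

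Ligands of this family are made as precursors in the cell membrane and are cut free by metalloproteases such as ADAM17. Bound receptors form pairs, in which ERBB2, which has no ligand of its own, is a common partner, and ERBB3, whose kinase is weak, binds neuregulins. Paired receptors signal through RAS and ERK to immediate early genes, and Hbegf, Areg, Ereg and Errfi1 are themselves known to be induced in keratinocytes when this signal is on. In skin the family is known for its part in keratinocyte growth, and mice that lack TGFα or have a weak EGFR have wavy hair.

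The libraries of the Eed table held 33269583 to 57063586 reads on genes, whereas the hair cycle libraries are of unknown depth and their normalized counts summed to 11370984 to 13186648. The summed normalized counts of 9 bulge markers lay between 754343 and 940350.0 in the Eed table. In the hair cycle table they lay between 177864 and 458870.0, with telogen replicate 1 the lowest. As a mean of log2 values, the markers there ran from 12.13 in telogen replicate 1 to 12.46 in telogen replicate 2. In limma 1 of the 9 was higher and 1 lower in anagen at an adjusted p under 0.05, against 7.22% and 4.35% of all genes. These sums and means describe the sort and do not test identity. Eed RNA, counted over the whole gene, did not separate Eed iKO libraries from controls (limma log2 fold change -0.01, SE 0.22, adjusted p = 0.993), so Eed iKO stands below for the label. Which part of Eed is deleted is not given in the sources used here, and a count over the whole gene need not show its loss. The study assessed the deletion by other assays, which were not analysed here. Several libraries stood apart from their group. Dissociation stress genes, a list of 8 immediate early and stress-induced regulators of transcription and the heat shock genes Hspa1a and Hspa1b, summed to 1293790.0 in control replicate 3 and 1242870.0 in Eed iKO replicate 3, against 574685 to 755647 in the other 4 libraries. The same 2 libraries had the most signal from 7 interfollicular and differentiated keratinocyte markers, 58308 and 81634 against 20904 to 30072. In the hair cycle table telogen replicate 3 had the lowest stress sum, 15194, and telogen replicate 1 the highest, 64741. The sums of 5 cell cycle markers were 10156, 9875 and 1184 in Eed iKO against 1404 to 3939.6 in controls, and 17694 to 27288 in anagen against 676 to 879.9 in telogen. Immune, melanocyte, fibroblast and endothelial lists each summed to at most 3279 in any library, with the endothelial marker Cdh5 at 0 in all hair cycle libraries. Hair germ and matrix markers summed to 10397 to 15875 in the Eed table and 1378 to 2872 in the hair cycle table, and sebocyte markers to 13382 to 19498 and 1479 to 3637. In bulk RNA, fewer cells of a type and less RNA per cell cannot be told apart.

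The ligand genes Epgn, Ereg, Areg and Btc lie in a row on mouse chromosome 5 (GRCm38) over 375.5 kb, with 0 other protein-coding genes between them. Epgn spans 91027464 to 91035215, Ereg 91074622 to 91093646 and Areg 91139599 to 91148432 on the plus strand, and Btc 91357261 to 91402994 on the minus strand. The gaps between neighbours are 39.4, 46.0 and 208.8 kb. The upstream sequences of Areg, Epgn and Btc are shown because these neighbours lay on opposite sides in the hair cycle comparison (anagen above telogen in every library for Areg and Epgn, below it for Btc). They are RefSeq sequences of GRCm38.p6, 5′ to 3′ on the strand of the gene, and end at the base before the gene start in the GENCODE annotation. Capitals mark the letters TGACGTCA (a cyclic AMP response element, CRE) and TATAAA. They cover chr5:91139349-91139598 for Areg, chr5:91027267-91027463 for Epgn and chr5:91402995-91403244 for Btc.
Areg: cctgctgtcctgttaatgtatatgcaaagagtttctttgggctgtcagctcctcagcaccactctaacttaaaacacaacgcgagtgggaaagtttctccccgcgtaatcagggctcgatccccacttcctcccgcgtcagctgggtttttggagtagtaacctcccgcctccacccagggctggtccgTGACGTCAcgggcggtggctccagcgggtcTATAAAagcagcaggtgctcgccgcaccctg
Epgn: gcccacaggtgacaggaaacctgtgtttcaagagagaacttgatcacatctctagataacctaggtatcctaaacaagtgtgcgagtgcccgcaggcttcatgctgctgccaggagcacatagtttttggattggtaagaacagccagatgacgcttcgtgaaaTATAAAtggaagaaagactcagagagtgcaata
Btc: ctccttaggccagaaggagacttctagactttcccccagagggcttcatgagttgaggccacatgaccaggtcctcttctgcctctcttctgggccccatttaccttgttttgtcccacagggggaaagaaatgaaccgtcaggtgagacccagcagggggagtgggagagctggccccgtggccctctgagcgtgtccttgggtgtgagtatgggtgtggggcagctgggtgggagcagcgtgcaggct

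The search covered the 250 bases before each RefSeq start, on both strands, for CRE, TATAAA, AP-1 (TGANTCA) and EGR1 (GCGNGGGCG) letters. In Areg the CRE began 61 bases and TATAAA 31 bases before the start. Epgn held TATAAA 86 bases before its RefSeq start, and Btc held none of the 4 motifs. Of the 7 members with a RefSeq window, Errfi1 held CRE and TATAAA at one of its starts (51 and 28 bases before it), and Tgfa, Egfr and Erbb2 held none of the 4. CRE letters occurred in 1.55% and TATAAA in 12.4% of 32851 mouse windows of this length, AP-1 letters in 6.75% and EGR1 letters in 4.7%. A match of letters is a description and no evidence of binding.

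Egfr and Errfi1 transcripts were above all ligand transcripts in every group, and Erbb2 and Erbb3 were above them in control and Eed iKO libraries. Levels were compared between genes as normalized count per kb of annotated exon, within 1 table at a time, since the tables were normalized separately. Errfi1 and Egfr were the highest members in all 4 groups, with overlapping libraries in each. Errfi1 stood at 3136.8 ± 610.2 per kb in controls (SD, n = 3), Egfr at 3006 ± 215, Erbb2 at 874 ± 91.4 and Erbb3 at 708 ± 78.8. Egfr was at the 97.7th percentile of all gene levels per kb there. Below the receptors, Hbegf was the highest ligand at 304 ± 118 per kb and made up 49.2% of the summed ligand level. Areg followed at 123 ± 110, Tgfa at 69.9 ± 18.8, Epgn at 56.4 ± 42.2, Ereg at 38.9 ± 20.0 and Btc at 25.1 ± 17.4. The receptors did not overlap each other or Hbegf in controls, whereas every neighbouring pair from Hbegf down to Btc overlapped. In Eed iKO the order was the same, with Hbegf at 374 ± 145 per kb and 52.9% of the ligand level, and there Hbegf did not overlap Areg.

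**Figure D1:**
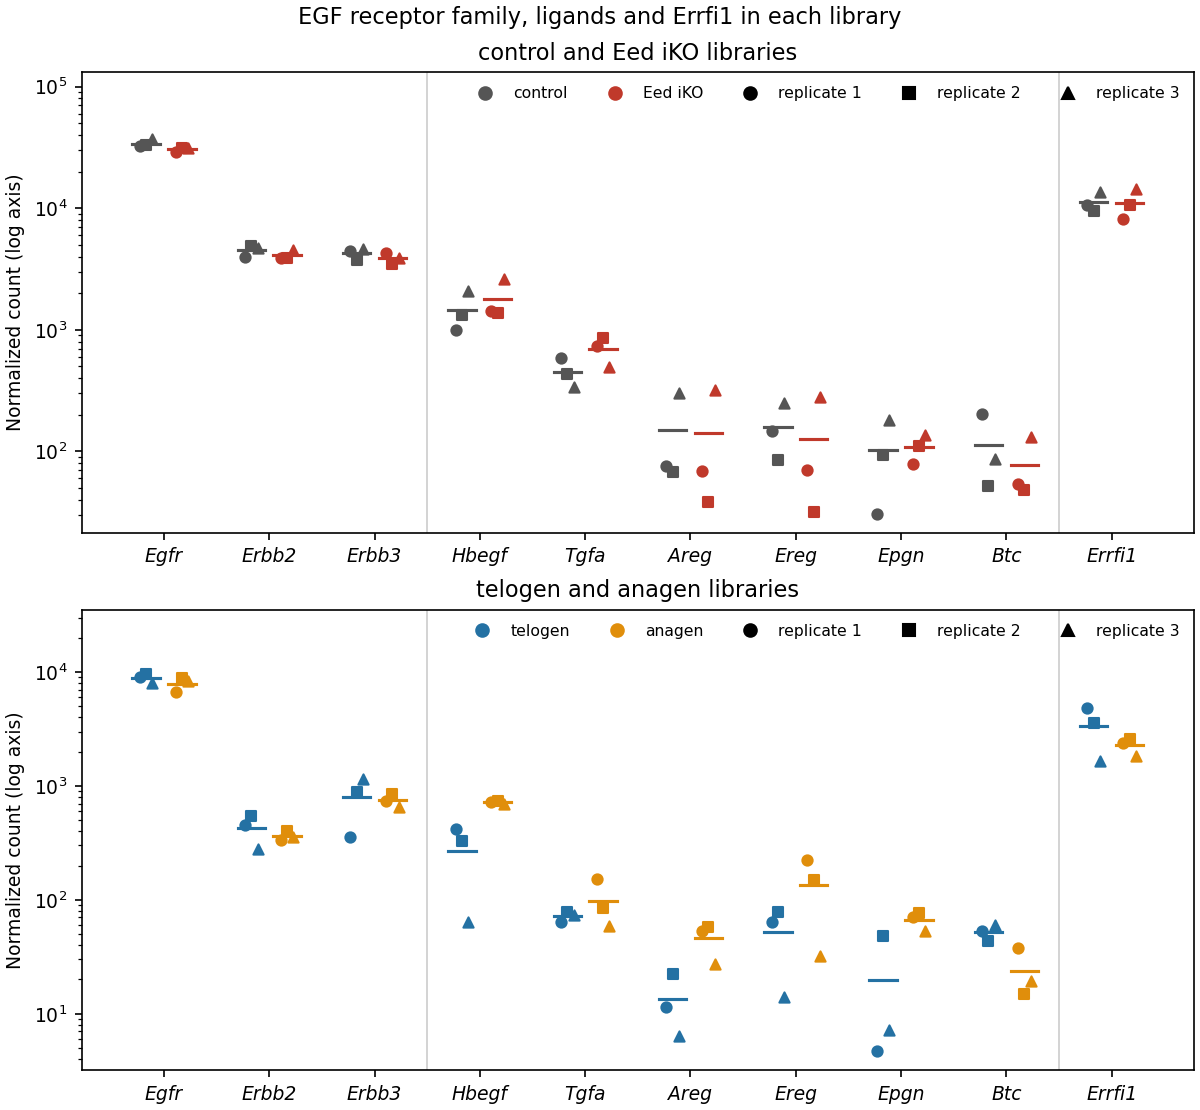
Normalized count of each member in every library, on a log axis, for control and Eed iKO libraries and for telogen and anagen libraries (each table on its own scale). Points are libraries, marked by replicate, and horizontal bars are group means of 3 libraries. Egfr and Errfi1 lie highest and the ligands other than Hbegf lowest in the Eed table. Areg, Ereg and Epgn spread most between libraries there, and Epgn, Ereg and Hbegf in the hair cycle table.

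The hair cycle libraries had the same 2 genes on top, and the order below them differed by phase. In telogen Errfi1 stood at 931 ± 443 per kb and Egfr at 780.5 ± 76.3, and neither overlapped the genes below. Next came Erbb3 at 133 ± 67.9, Erbb2 at 82.1 ± 25.9 and Hbegf at 56.0 ± 38.0, each overlapping its neighbour. The other 5 ligands lay between 11.0 and 12.6 per kb in telogen and overlapped throughout. In anagen Hbegf, at 149 ± 5.03 per kb, came next, above Erbb3 (124 ± 17.1) and Erbb2 (69.7 ± 7.02), and its 3 libraries overlapped neither Egfr and Errfi1 above nor Erbb3 below. Areg, Epgn and Ereg followed at 37.9, 37.0 and 32.7 per kb with overlapping libraries, and Btc was lowest at 5.30 ± 2.64. Hbegf made up 49.4% of the summed ligand level in telogen and 53.7% in anagen.

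The comparison of Eed iKO with control asks how these genes stand after the loss of PRC2 was induced. In limma, fitted over 15008 genes on log2(normalized count + 1), 0 of 10 members passed an adjusted p of 0.05, where 0.0267% of all genes tested did. At an unadjusted p of 0.05 the count was again 0 of 10, against 14.7% of all genes, and it was 0 under the fold and p thresholds of the study's methods, which 1.75% of genes passed. On reads recovered from the normalized counts, edgeR called 0 of 10 (0.0333% of genes) and DESeq2 0 of 10 (4.48% of genes). The median log2 fold change of the members was -0.14, with 3 above 0 and 7 below, against -0.00 over all genes tested. Groups did not overlap for 1 of 10 members, Egfr, which was lower in Eed iKO, against 20.2% of all genes (10.2% higher and 10% lower). The study describes 3 biological replicates a group for this comparison, taken from more than 1 litter. The labels number the replicates without tying them to animals or litters, and litter was not modelled. These p-values therefore measure only the spread between libraries.

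Among the receptors, Egfr (chromosome 11, 16752203 to 16918158, plus strand) binds all 6 member ligands. Its normalized counts were 32242, 33078 and 36818 in controls and 29270.4, 31292 and 31553 in Eed iKO. All 3 Eed iKO libraries lay below all 3 controls, by a margin that was small beside the spread of the controls. The means were 34046 ± 2437 and 30705 ± 1249 (SD, n = 3 each), a log2 difference of -0.15 (SE 0.13, 95% confidence interval -0.44 to 0.14, limma adjusted p = 0.640). Erbb2 (chromosome 11, 98412470 to 98437716, plus strand), the partner receptor without a ligand, had 4009, 4902 and 4743 in controls and 3885, 3934 and 4511 in Eed iKO, with overlapping groups and a log2 difference of -0.14 (-0.47 to 0.18). Erbb3 (chromosome 10, 128567523 to 128589652, minus strand) had 4459.6, 3719 and 4601 against 4274, 3490.0 and 3919.9, a log2 difference of -0.13 (-0.46 to 0.20). The intervals of the 3 receptors together reached from -0.47 to 0.20 on the log2 scale.

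Hbegf, the heparin-binding ligand (chromosome 18, 36504927 to 36515805, minus strand), had 989, 1314 and 2101 in controls and 1423, 1381 and 2617 in Eed iKO. In each group replicate 3 was the highest, and the groups overlapped (log2 difference 0.30, SE 0.31, interval -0.38 to 0.99, limma adjusted p = 0.698). Without Eed iKO replicate 3 the difference was 0.00, and without control replicate 3 it was 0.60.

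Tgfa (chromosome 6, 86195223 to 86275719, plus strand), an EGFR ligand that keratinocytes make for themselves, had the lowest p of the members. It had 583, 437 and 341 normalized counts in controls and 738, 853 and 493 in Eed iKO. Eed iKO replicate 3 lay within the range of the controls, and the other Eed iKO libraries lay above it. Means were 454 ± 122 and 695 ± 183, a 1.53-fold difference (log2 0.61, SE 0.30, interval -0.06 to 1.28) with unadjusted p = 0.0695 and adjusted p = 0.376 in limma. It stayed between 0.42 and 0.84 with any 1 library left out.

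The clustered ligands on chromosome 5 were low and varied widely within groups. Areg, amphiregulin, had 75.6, 68.2 and 304 in controls and 68.8, 38.5 and 319 in Eed iKO. Ereg, epiregulin, had 148, 84.5 and 248 against 69.9, 31.9 and 279. For both genes replicate 3 was the highest library of its group, and the groups overlapped. Log2 differences were -0.29 for Areg (SE 0.82, interval -2.09 to 1.51) and -0.76 for Ereg (SE 0.75, interval -2.41 to 0.88). For Ereg the value was -1.61 when Eed iKO replicate 3 was left out, and -0.06 when Eed iKO replicate 2 was. Areg turned to 0.40 without control replicate 3 and to 0.35 without Eed iKO replicate 2. Without both replicates 3, chosen as an alternative after the data were seen, 0 of 10 members were called, where 1.12% of all genes tested were.

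Epgn, epigen, had 30.5, 93.2 and 182 in controls and 79.6, 112 and 135 in Eed iKO, so that the controls spanned the whole Eed iKO range (log2 difference 0.40, SE 0.65, interval -1.04 to 1.83). Btc, betacellulin, had 202, 52.0 and 86.1 against 53.8, 47.8 and 132, with control replicate 1 the highest (log2 difference -0.46, SE 0.64, interval -1.88 to 0.95). Leaving out control replicate 1 turned the sign of both, to -0.29 for Epgn and 0.06 for Btc. Errfi1 (chromosome 4, 150853919 to 150868892, plus strand), whose product binds the receptor kinase and restrains it, had 10543, 9480.3 and 13684 in controls and 8114, 10594 and 14487 in Eed iKO. Its groups overlapped throughout (log2 difference -0.05, SE 0.21, interval -0.52 to 0.43, limma adjusted p = 0.943), and the sign turned to 0.16 without Eed iKO replicate 1 and to 0.11 without control replicate 3.

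The comparison of anagen with telogen asks how the same genes stand in growing and resting follicles. A figure legend of the study names 6 animals for these data. The labels do not tie libraries to animals, so whether a library holds cells of 1 animal or more is not given. The p-values of this comparison measure only the spread between libraries. In limma over 13457 genes, 0 of 10 members passed an adjusted p of 0.05, where 11.6% of genes tested did (7.22% higher and 4.35% lower in anagen). At an unadjusted p of 0.05 there were 3 of 10, the ligands Hbegf, Areg and Epgn, all higher in anagen, against 27.3% of genes (15.1% higher). Epgn also passed the fold and p thresholds of the study's methods, which 5.1% of genes did. Groups did not overlap for 3 members higher in anagen (18.1% of genes) and 1 lower (15.2% of genes), which is 4 of 10 members against 33.3% of genes. Counts of reads could not be recovered for these libraries, so no count model was run. The 6 ligands had a median log2 difference of 1.54, with 5 above 0, against 0.01 over all genes tested, and the receptors a median of -0.17.

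**Figure D2:**
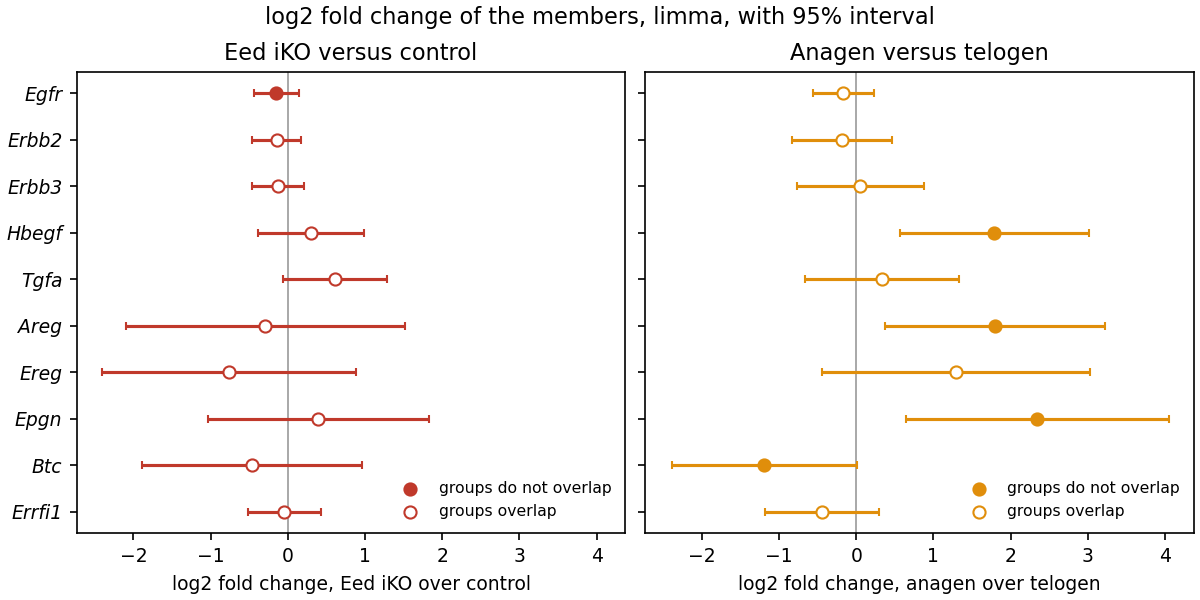
Log2 fold change of each member with its 95% confidence interval from limma, for Eed iKO over control and for anagen over telogen, with filled points where the groups do not overlap. In the hair cycle comparison the intervals of Hbegf, Areg and Epgn lie above 0, from 0.56 to 3.01 for Hbegf, and all 10 intervals of the Eed iKO comparison include 0.

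The telogen values of Hbegf were 418, 329 and 64.5 normalized counts, and the anagen values 716, 744 and 696. The anagen libraries lay close together and above every telogen library, and telogen replicate 3 lay far below the other telogen libraries. Means were 271 ± 184 and 718 ± 24.3. The fitted difference of log2 values corresponded to 3.45-fold (log2 1.79, SE 0.56, interval 0.56 to 3.01, unadjusted p = 0.00820, limma adjusted p = 0.0621). With 1 library left out, Hbegf was called in 2 of 6 fits. Its difference was 0.95 with an adjusted p of 0.0435 without telogen replicate 3, where 9.11% of all genes tested were called, and 2.29 with an adjusted p of 0.0204 without telogen replicate 1. In the other 4 fits the adjusted p lay between 0.0575 and 0.165. Leaving out both replicates 3, an alternative chosen after the data were seen, gave 0.97 with an adjusted p of 0.107.

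Areg had 11.5, 22.2 and 6.32 in telogen and 53.1, 57.9 and 27.3 in anagen. Every anagen library was above every telogen library, with replicate 3 the lowest of each group. Means were 13.4 ± 8.12 and 46.1 ± 16.5, and the fitted difference corresponded to 3.49-fold (log2 1.80, SE 0.65, interval 0.38 to 3.23, unadjusted p = 0.0177, limma adjusted p = 0.0992). Epgn had 4.69, 47.9 and 7.27 in telogen and 70.4, 76.9 and 53.1 in anagen. Telogen replicate 2 stood well above the other telogen libraries and just below the lowest anagen library. The fitted difference corresponded to 5.08-fold (log2 2.34, SE 0.78, interval 0.64 to 4.05, unadjusted p = 0.0115, limma adjusted p = 0.0769), and it was called in 1 of 6 fits with 1 library left out. Without telogen replicate 2 it was 3.29 with an adjusted p of 0.00974, and without telogen replicate 1 it was 1.74 with an adjusted p of 0.166.

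Ereg, which lies between Epgn and Areg, had 64.1, 77.8 and 13.9 in telogen and 223, 149 and 32.2 in anagen. The groups overlapped, since anagen replicate 3 lay below 2 of the telogen libraries, while the other anagen libraries lay above all of them. The log2 difference was 1.29 (SE 0.79, interval -0.45 to 3.03, limma adjusted p = 0.319), and it ran from 0.54 without telogen replicate 3 to 2.11 without anagen replicate 3. Some 3.42% of annotated Ereg exon sequence overlaps a gene on the opposite strand, and whether the libraries kept strand is not given in the sources used here.

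Btc went the other way from its neighbours, with 53.2, 43.6 and 60.4 in telogen and 37.4, 14.9 and 19.6 in anagen. All 3 anagen libraries lay below the 3 telogen libraries. Means were 52.4 ± 8.43 and 23.9 ± 11.9, and the fitted difference corresponded to 2.28-fold (log2 -1.19, SE 0.55, interval -2.39 to 0.01, unadjusted p = 0.0518, limma adjusted p = 0.187). Tgfa had 64.3, 77.7 and 73.6 in telogen and 151, 84.2 and 58.4 in anagen, with anagen replicate 1 the highest and anagen replicate 3 below every telogen library. Its log2 difference of 0.34 (SE 0.45, interval -0.66 to 1.33) turned to -0.03 without anagen replicate 1.

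Receptor levels overlapped between the phases. Egfr had 8944, 9647 and 7928 in telogen and 6637, 8770.2 and 8307 in anagen, a log2 difference of -0.17 (SE 0.18, interval -0.57 to 0.23, limma adjusted p = 0.592). Erbb2 had 458, 545 and 280.2 in telogen and 333, 404 and 353 in anagen. The anagen libraries sat within the telogen range (log2 difference -0.19, interval -0.83 to 0.46), and without telogen replicate 2 the difference was 0.02. Erbb3 had 354, 887 and 1156 in telogen and 731, 854 and 649 in anagen, again inside the telogen range. Its difference of 0.05 (interval -0.77 to 0.88) was -0.45 without telogen replicate 1, 0.40 without telogen replicate 3 and -0.05 without anagen replicate 2. Errfi1 had 4814, 3529 and 1659 in telogen and 2379, 2594 and 1819.9 in anagen, so that telogen replicate 3 lay below all anagen libraries and the other telogen libraries above them. The log2 difference was -0.44 (SE 0.33, interval -1.17 to 0.29, limma adjusted p = 0.424), and it was called in 1 of 6 fits with 1 library left out. Without telogen replicate 3 it was -0.88 with an adjusted p of 0.0453, and without telogen replicate 1 it was -0.11 with an adjusted p of 0.846.

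In the Eed table every ligand varied more between libraries than any receptor did, and in the hair cycle table all ligands but Tgfa did. Over the 6 libraries of the Eed table the highest value was 1.26 times the lowest for Egfr, 1.26 for Erbb2 and 1.32 for Erbb3, against 8.29 for Areg, 8.75 for Ereg, 5.97 for Epgn and 4.22 for Btc. Hbegf spanned 2.65-fold, Tgfa 2.5-fold and Errfi1 1.79-fold. In the hair cycle table Egfr spanned 1.45-fold, Erbb2 1.94-fold and Erbb3 3.27-fold, whereas Ereg spanned 16-fold, Epgn 16.4-fold, Hbegf 11.5-fold, Areg 9.17-fold, Btc 4.06-fold and Tgfa 2.59-fold. The rarer ligands also have the lowest counts, and the part of counting error in these spans was not tested.

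Ligand levels and dissociation stress genes were highest or lowest in the same library in some cases and not in others. Egr1, an immediate early gene of the ERK pathway, had 259639, 266169 and 530754 in controls and 251850, 359257 and 494634 in Eed iKO. Areg, Ereg, Hbegf, Epgn and Errfi1 were each highest in replicate 3 of both groups, the same 2 libraries. These 2 libraries also had the most signal from the interfollicular and differentiated keratinocyte markers, 58308 in control and 81634 in Eed iKO. Tgfa in contrast was lowest in replicate 3 of each group, and Btc was highest in control replicate 1 and Eed iKO replicate 3. Eed iKO replicate 2, the lowest library for Areg, Ereg and Btc, had a stress sum of 755647, above the 574685 of Eed iKO replicate 1. In telogen Egr1 was 32866, 15908.5 and 5060.75, and replicate 3, lowest for Egr1, was also the lowest telogen library for Areg, Ereg, Hbegf and Errfi1. Telogen replicate 1 had the highest stress sum of the table, and there Epgn was at its lowest and Errfi1 at its highest. Anagen Egr1 was even, at 17283.8, 18877.9 and 17866, inside the telogen range, while Hbegf was above all telogen libraries. Atf3, another stress gene, had 4011, 4536 and 1331 in telogen and 7230, 7578 and 5219 in anagen. Within the stress list 2 of 10 genes, Fos and Ier2, rose in anagen by the adjusted test, and 0 of 10 passed it in Eed iKO. Anagen replicate 3, the lowest anagen library for Ereg, had a stress sum of 44305 beside 47659.7 and 50094 in the other anagen libraries. The parts of sorting stress and of other keratinocytes in the ligand values were not tested.

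**Figure D3:**
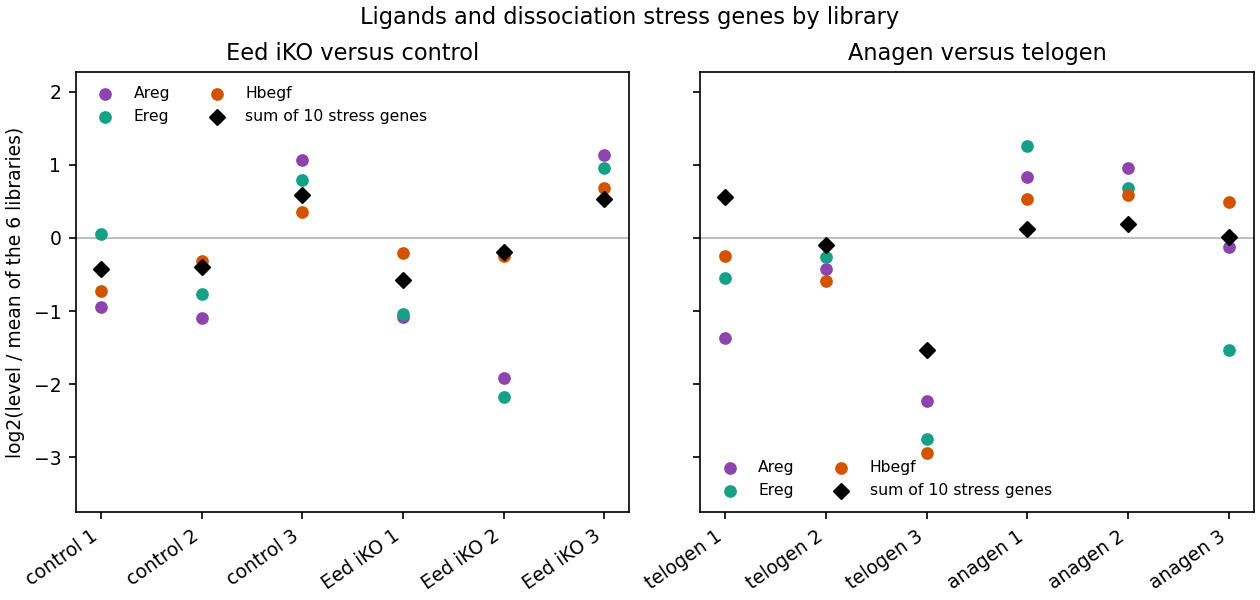
Levels of Areg, Ereg and Hbegf (circles) and the summed level of 10 dissociation stress genes (diamonds) in each library, as log2 of the level over the mean of the 6 libraries of that table. Replicate 3 of control and of Eed iKO is the highest for Areg, Ereg and Hbegf and has the highest stress sums, 1293790.0 and 1242870.0, and telogen replicate 3 is the lowest for these ligands with a stress sum of 15194.

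The rest of the pathway was read from 55 genes in 6 lists. They cover other receptors and ligands of the family, shedding proteases, receptor turnover, the RAS and ERK chain, ERK feedback and ERK-induced genes. The last list holds transcription factors such as Fos, and also Phlda1. In Eed iKO against control all 55 were tested and 0 passed the adjusted test in limma. At an unadjusted p of 0.05 there were 1 higher and 7 lower, against 8.38% and 6.33% of all genes. On recovered reads edgeR called 0 of 55, against 0.0333% of all genes, and DESeq2 called 1 of 55, against 4.48%. The DESeq2 call was Phlda1, a growth factor-induced gene, with 5041, 4575 and 6454 in controls and 2610, 4121 and 1929.8 in Eed iKO. These groups did not overlap (log2 -0.95, limma unadjusted p = 0.00327, adjusted p = 0.139, and DESeq2 adjusted p = 0.0209). Spry1, an inhibitor of receptor signalling, differed by -0.61 (unadjusted p = 0.00921, limma adjusted p = 0.180). The median of the 55 was -0.05. Of these genes 1, Nrg1, passed the thresholds of the study's methods, which 1.75% of all genes did.

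The other genes at the ends of each list gave the following log2 differences in Eed iKO, all short of the adjusted test. Among ligands of other family receptors Nrg4 was lowest at -1.07 (limma adjusted p = 0.459). Among shedding proteases Adam10 was highest at 0.36 and Adam12 lowest at -0.72, and among genes that restrain or remove the receptors Lrig1 was highest at 0.06 and Socs4 lowest at -0.41. In the RAS and ERK chain the kinase Map2k2 was highest at 0.50 and the kinase Araf lowest at -0.43. Spry4, a feedback inhibitor like Spry1, was highest of its list at 0.67, and Fos was highest of the list of ERK-induced genes at 0.56.

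Nrg1, the neuregulin that binds ERBB3 and ERBB4 (chromosome 8, 31814551 to 32884029, minus strand), had the largest positive difference of the 55 genes in Eed iKO. It had 4.86, 1.08 and 39.9 in controls and 68.8, 106 and 38.6 in Eed iKO. Eed iKO replicate 3 and control replicate 3 had nearly the same value, and the other 4 libraries were far apart by group. The log2 difference was 3.07 (SE 1.06, interval 0.73 to 5.42, unadjusted p = 0.0151, limma adjusted p = 0.216). It was 2.21 in edgeR (adjusted p = 0.38), 1.92 with a pseudocount of 10, 2.11 without control replicate 2 and 4.25 without control replicate 3. In Eed iKO the summed cell cycle markers were, like Nrg1, lowest in replicate 3, at 10156, 9875 and 1184. In controls they went the other way from Nrg1, at 1674.8, 3939.6 and 1404.5, lowest in the replicate where Nrg1 was highest. Their part in the Nrg1 values was not tested.

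In anagen 53 of the 55 genes were tested, and 4 rose and 2 fell by the adjusted test, against 7.22% and 4.35% of all genes. Nrg1 rose by a fitted 7.95-fold, from 10.9, 16.8 and 3.93 in telogen to 109.9, 65.5 and 70.2 in anagen, with no overlap (log2 2.99, SE 0.63, interval 1.61 to 4.37, limma adjusted p = 0.0120). This call held in 5 of 6 fits with 1 library left out and was lost without anagen replicate 1, at an adjusted p of 0.0832. Fos, an ERK-induced transcription factor, rose from 3092, 3792 and 1827 to 9087, 9913 and 7691 (log2 1.67, SE 0.26, limma adjusted p = 0.00233), and kept its call in 6 of 6 such fits. Fos is also one of the dissociation stress genes. All 5 cell cycle markers rose in anagen as well, and melanocyte markers summed to 441 to 811 in anagen against 108 to 159.6 in telogen. Their part in these results was not tested.

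Adam9, a membrane metalloprotease of the shedding list, rose from 414, 513 and 509 to 942, 1044 and 852 (log2 0.98, SE 0.22, limma adjusted p = 0.0159). Adam17, the main protease for several of these ligands, had 1743, 1161 and 1232 in telogen and 1462, 1584 and 1504 in anagen, with overlapping groups. Spred2, an inhibitor of RAS signalling to RAF, rose from 469, 686 and 559 to 858, 1347 and 1107 (log2 0.94, SE 0.25, limma adjusted p = 0.0329). Ptprk, a phosphatase of EGFR, fell from 2873, 3145 and 3369 to 1948, 1929 and 1889.7 (log2 -0.70, SE 0.17, limma adjusted p = 0.0255). Araf, a RAF kinase, fell from 1667, 1042 and 1059 to 639, 661 and 545 (log2 -0.998, SE 0.24, limma adjusted p = 0.0234). For all 4 genes the groups did not overlap. The calls held with 1 library left out in 4 of 6 fits for Adam9, 3 for Araf, 2 for Ptprk and 1 for Spred2.

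By list, the other family genes gave 1 gene higher of 5 tested, shedding 1 of 6, feedback 1 of 8 tested and ERK-induced genes 1 of 8. Turnover gave 1 lower of 9 and the RAS and ERK chain 1 lower of 17. At an unadjusted p of 0.05 the 53 genes tested gave 10 higher (15.1% of all genes) and 8 lower (12.2%). The genes at the ends of the lists that did not pass were Rhbdf2 (log2 1.10) and Rhbdf1 (-0.16), which guide ADAM17 to the surface, the phosphatase Ptpn1 (0.69) and the receptor inhibitor Lrig3 (-0.77), and the adaptor Grb2 (-1.05). In the ERK feedback list Dusp5, an ERK phosphatase, stood at 1.40 and Spred3 at -1.23, and in the list of ERK-induced genes Etv4 stood at -0.52. Among other ligands, Egf had 109, 50.6 and 53.7 in telogen and 9.51, 58.9 and 4.06 in anagen, and anagen replicate 2 lay above 2 telogen libraries (log2 -2.20, SE 0.84, unadjusted p = 0.0231, limma adjusted p = 0.117). Nrg4 had 124, 59.1 and 44.6 in telogen and 24.5, 34.9 and 18.4 in anagen, without overlap (log2 -1.42, unadjusted p = 0.0257, limma adjusted p = 0.124). Erbb4, the receptor for neuregulins with a full kinase, was low, with 0 to 14.4 normalized counts in the hair cycle libraries and 0 to 54.4 in the Eed table.

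**Figure D4:**
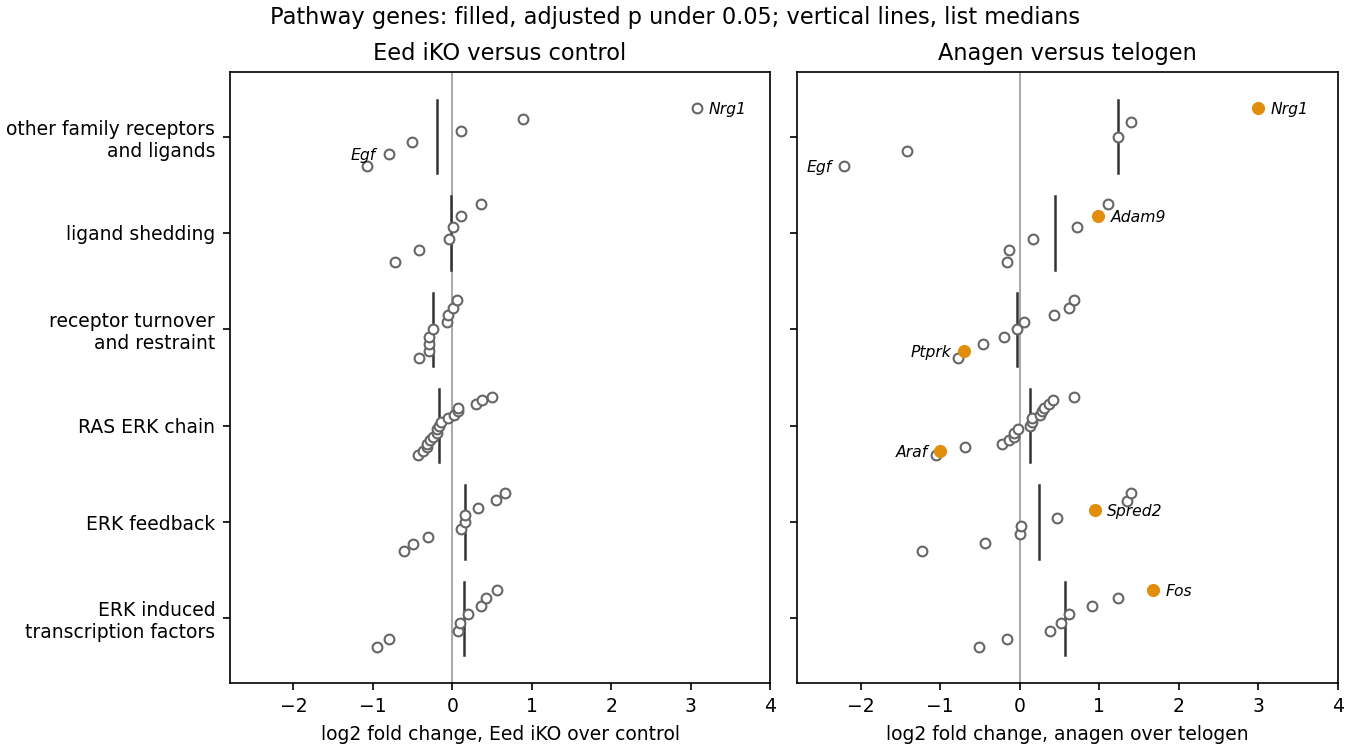
Log2 fold change of each gene of the 6 pathway lists, for Eed iKO over control and for anagen over telogen, with filled points for genes that passed an adjusted p of 0.05 in limma and vertical lines at the list medians. In the hair cycle comparison 4 genes lie above 0 and 2 below 0 among those that passed, and in the Eed iKO comparison 0 passed. The list labelled ERK induced transcription factors holds the ERK-induced genes, among them Phlda1.

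The genes whose log2 profile over the 6 libraries of a table was most like that of Egfr differed between the tables. In the Eed table they were Spty2d1 (Pearson r = 0.990), Xrcc1 (0.988) and Rhobtb2 (0.988), out of 15007 genes compared. In the hair cycle table they included Jkamp (0.974) and Tysnd1 (0.974), out of 13456. With 6 libraries that share groups and depth, these correlations are a description.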

How the data were processed

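RNA-seq was read from HFSCs of 12 libraries. The authors reverse transcribed and amplified RNA, aligned reads with kallisto 0.42.5 to mouse transcripts (build mm10 in the submitters' processing notes) and deposited normalized counts per gene, a signal value scaled by DESeq2, whose version those notes give as 3.11. The authors deposited log2 fold changes of their own comparisons and the p-values of these as well, and neither was used. Members, gene lists and alternatives were chosen with earlier results of these data known.

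Each table was analysed on its own. Genes were filtered by filterByExpr (minimum count 10), transformed to log2(normalized count + 1) and fitted with limma 3.58.1 (R 4.3.3), groups without a block, with Benjamini-Hochberg adjustment over all genes tested and a call at adjusted p under 0.05. Fold changes on this scale understate changes of low genes. Values of the Eed table were whole multiples of a constant per library (100% within 0.01), so reads were recovered there for edgeR 4.0.16 and DESeq2 1.42. Hair cycle values were not (1.77% to 5.96%). The planned fit depended on the unit, and limma was used because the values are normalized. The thresholds of the study's methods were log2 fold changes past 1.5 (Eed) and 2 (hair cycle) with an unadjusted p under 0.05. A figure legend of the study gives another rule for Eed, a fold change of at least 1.5 with an adjusted p under 0.05. That rule was not applied here. All members were named. Of the pathway lists, genes called by limma or the methods' thresholds and the highest and lowest of each list were named, and Erbb4, Adam17 and Nrg4 in the hair cycle were named after their values were seen. The 3 genes most correlated with Egfr were chosen for naming as well. Some genes chosen by these rules are not reported here. Replicate numbers were not used as a pairing in the main fit. Figures used matplotlib 3.10.9. Scripts were tested on simulated data. Positions are from GENCODE on GRCm38 and upstream sequences from RefSeq.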

Additional observations from a re-analysis of the deposited data

How the results depend on the processing

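In Eed iKO against control 0 members were called under every alternative run. Of 55 pathway genes, where limma called 0, the replicate block called 3 (Fos higher, Fosl1 and Phlda1 lower, where 2.83% of genes were called). The thresholds of the study's methods gave 1 (1.75% of genes), DESeq2 on recovered reads 1 (4.48%) and an unadjusted p 8 (14.7%). In anagen against telogen limma called 0 members and 6 pathway genes, where 11.6% of genes were called. The replicate block called 1 member (Hbegf, adjusted p = 0.0276, where 9.1% of genes were called). The methods' thresholds gave 1 member (5.1% of genes) and an unadjusted p 3 (27.3%). Leaving out 1 library gave 0 to 2 members. For pathway genes there, limma without an intensity trend called 2, and the share of all genes called in that fit was not recorded. The methods' thresholds gave 2 (5.1% of genes) and an unadjusted p 18 (27.3%). Leaving out both replicates 3 called 1 and leaving out 1 library 1 to 10. The share of all genes called also moved. It ran from 4.26% without anagen replicate 1 to 11.1% without telogen replicate 1, and was 4.43% without both replicates 3. Same-numbered libraries did not deviate together in every pair. Correlations were 0.039, 0.068 and 0.193 in the Eed table and -0.035, -0.071 and -0.029 in the hair cycle table. In the Eed table the libraries of replicate 3 correlated best with their own number, and those of the other replicates did not. No number did so in the hair cycle table. Whether same-numbered libraries share a batch or litter is not given in the labels and was not tested.

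Signs turned only when libraries were left out. With 1 library out in the Eed table, log2 differences ran from -1.16 to 0.40 for Areg, -0.29 to 0.98 for Epgn, -0.92 to 0.062 for Btc and -0.26 to 0.16 for Errfi1. In the hair cycle table they ran from -0.463 to 0.0154 for Erbb2, -0.45 to 0.40 for Erbb3 and -0.031 to 0.649 for Tgfa. Without both replicates 3, Btc was -1.004 in the Eed table, and Erbb3 0.50 and Tgfa 0.67 in the hair cycle table. The cause of these shifts was not tested. The unadjusted p and the omission of both replicates 3 were added after the data were seen. Count models were not run for the hair cycle libraries because their reads could not be recovered, and with 3 libraries a group the low ligands (mean normalized counts of 13.4 to 52.4 in telogen for Areg, Epgn, Ereg and Btc) had intervals several log2 units wide.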
